A study of Homo sapiens with 8 samples.

Results

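Serpins of clade B are intracellular protease inhibitors, and 10 of them that are known from surface epithelia, skin or mucosa are described here in human esophageal epithelium. The members were SERPINB1, SERPINB2, SERPINB3, SERPINB4, SERPINB5, SERPINB6, SERPINB7, SERPINB8, SERPINB12 and SERPINB13, taken by symbol from the 25369 genes of the deposited expression table, and all 10 had a row. RNA was sequenced from EPC2-hTERT, keratinocytes of human esophagus immortalised with telomerase, so that every value comes from 1 line of wild-type genotype as labelled. The cells had 2 days to reach confluence on a membrane, 5 days in medium with 1.8 mM CaCl2 and 4 days at an air-liquid interface, in serum-free keratinocyte medium with bovine pituitary extract and epidermal growth factor. For the last 18 h, 4 samples labelled DMOG had 1 mM dimethyloxalylglycine and 4 labelled vehicle had DMSO. DMOG blocks prolyl hydroxylases and other enzymes that use 2-oxoglutarate, so it stabilises hypoxia-inducible factors (HIF) but is not specific to them. The comparison asked what such a block does to transcript levels in a stratified esophageal epithelium.

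An inhibitory serpin offers a flexible loop, the reactive centre loop, as bait: the protease that cleaves it is trapped in an inactive complex. The sequence of that loop decides which protease is caught, and some serpins have lost inhibition altogether. Clade B members lack a classical secretion signal and act largely inside the cell, and several of them mark differentiating squamous epithelium or are altered in disorders of the skin barrier.

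The libraries held 31245695 to 39931833 reads in genes. Values are RPKM, reads scaled to gene length and to the library total, which can be compared between genes. Fold changes are limma log2 differences, DMOG minus vehicle, of log2(RPKM + 1) after scaling by median-ratio factors, each with its standard error. A gene was called when the Benjamini-Hochberg adjusted p over 11122 tested genes was under 0.05. DMOG replicate 2 stood apart: CA9, a HIF target, was at 2.56 RPKM there, against 9.97 to 57.5 RPKM in the other DMOG libraries and 0.129 to 1.29 RPKM in vehicle. PGK1, a glycolytic HIF target, was at 115 RPKM in that library, against 317 to 455 RPKM in the other DMOG libraries and 101 to 127 RPKM in vehicle. Its whole profile also lay nearer to vehicle. As chi-square per degree of freedom on recovered reads, it was 19.7 to 64.4 from vehicle libraries and 121 to 293 from the other DMOG libraries. Vehicle libraries were 34.7 to 119 from each other. The members tested are therefore given for all 8 libraries and for 6 libraries, DMOG and vehicle numbers 1, 3 and 4, which are those behind the authors' deposited table. Why that table leaves out replicate 2 of both groups is unstated in the sources used here. Setting aside a treated library that responded weakly can make p-values too small, so the 6-library calls depend on that choice. Genes of other lists are given for the 6 libraries alone. In the 8, limma called none of the 11122 genes tested, so having no call there does not set these lists apart. Keratinocyte keratins were abundant in all libraries, with KRT5 at 3922 to 8148 RPKM and KRT13 at 272 to 1376 RPKM. Among markers of other cells, DCN and LUM of fibroblasts and CDH5 of endothelium were at 0 in every library, PTPRC of leukocytes reached 0.00395 RPKM, and VWF of endothelium reached 1.95 RPKM. CD68, a lysosomal protein of macrophages and other cells, was at 42.7 to 93.1 RPKM, and the simple-epithelium keratin KRT18 at 58.3 to 107 RPKM.

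In the 6 libraries, 4 of the 9 members tested rose with DMOG, SERPINB3, SERPINB12, SERPINB5 and SERPINB7, and none fell. Over all genes tested, 13.7% rose and 16.1% fell. The median log2 fold change was 0.51 over the 9 members and -0.00 over all 11122 genes. With all 8 libraries, limma called 0 members higher and 0 lower, and it called 0.0% of all genes in either direction. At an unadjusted p under 0.05 the 8 libraries gave 4 members higher and 0 lower, against 14.0% of all genes higher and 16.3% lower, and limma-voom on recovered reads called 0 genes too. The labels do not say that replicates were separate cultures, so p-values measure only how far these samples spread, and that spread may be technical. SERPINB4, the tenth member, was below the filter of 1 RPKM in at least 4 libraries and was not tested.

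**Figure D1:**
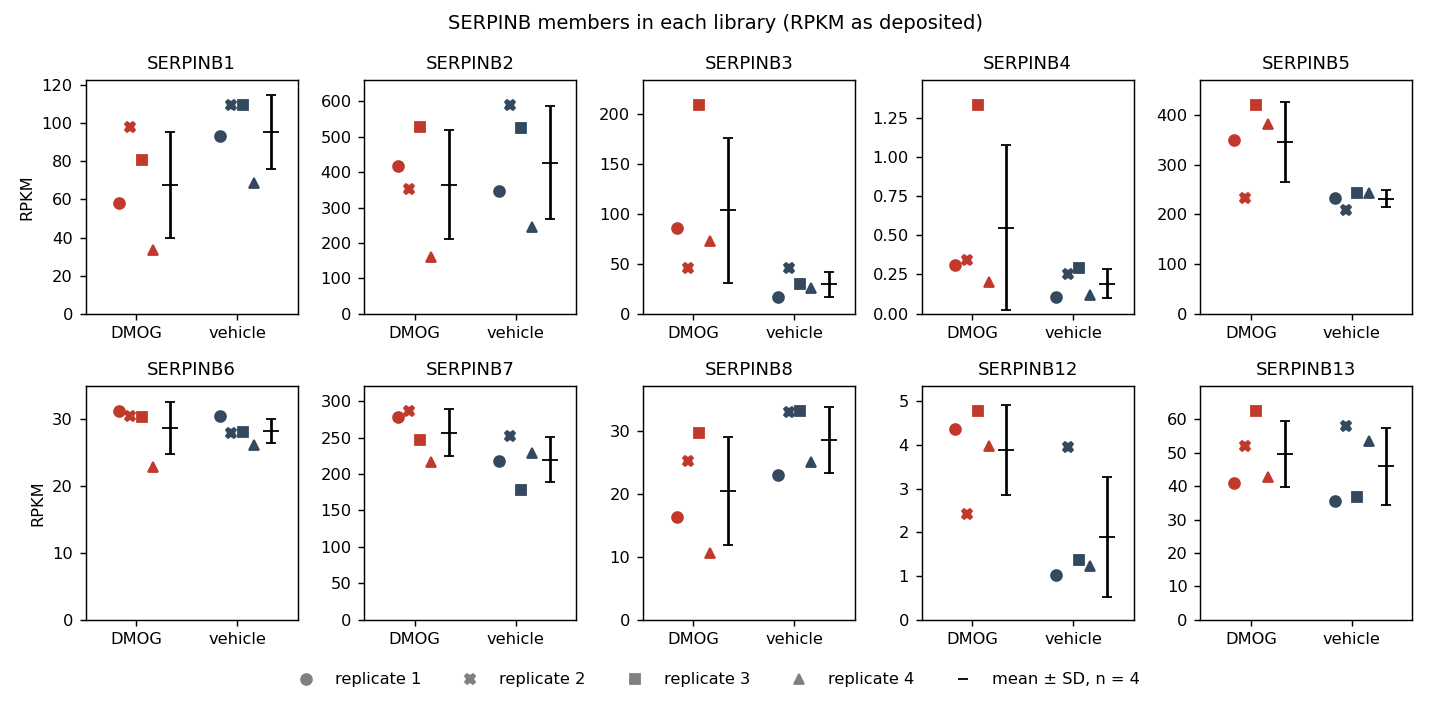
RPKM as deposited (y axis, from 0, a scale of its own in each panel) of the 10 members in 4 DMOG and 4 vehicle libraries, with symbols for replicate numbers and a bar for mean ± SD. SERPINB3 in DMOG replicates 1, 3 and 4 lies at 73.1 to 209 RPKM, above all 4 vehicle libraries, while the symbols of DMOG replicate 2 lie among the vehicle values in most panels.

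SERPINB3 and SERPINB4, the squamous cell carcinoma antigens, are near-identical neighbours on chromosome 18. SERPINB3 is known to inhibit cysteine proteases such as cathepsins L, K and S, and SERPINB4 to inhibit the serine proteases cathepsin G and mast cell chymase. In hg19 the listed positions are chr18:61322431-61329197 for SERPINB3 and chr18:61304493-61311502 for SERPINB4, both on the minus strand. Their coding sequences have 1173 bases each, of which 56 differ (95.2% identity, GENCODE 29). The least alike 120 bases, coding bases 952 to 1071, hold the hinge and the start of the reactive centre loop; they are shown because this loop sets which protease is caught, and because reads can be told apart where the copies differ. Capitals mark the 18 bases that differ (85.0% identity), with GRCh38 positions chr18:63655759-63655878 and chr18:63637821-63637940 on the minus strand.
SERPINB3 coding: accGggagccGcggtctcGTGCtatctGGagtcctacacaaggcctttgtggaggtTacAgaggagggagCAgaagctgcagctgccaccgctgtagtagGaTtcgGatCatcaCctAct
SERPINB4 coding: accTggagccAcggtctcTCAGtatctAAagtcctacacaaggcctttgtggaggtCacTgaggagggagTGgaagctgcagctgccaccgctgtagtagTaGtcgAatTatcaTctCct

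The 250 bases upstream of each start differ even less, at 3 positions (98.8% identity). They are shown beside the levels below, in which the copies stand far apart. The RefSeq sequences lie at chr18:63661894-63662143 and chr18:63644257-63644506, minus strand, GRCh38.p14, and capitals again mark the differences.
SERPINB3 promoter: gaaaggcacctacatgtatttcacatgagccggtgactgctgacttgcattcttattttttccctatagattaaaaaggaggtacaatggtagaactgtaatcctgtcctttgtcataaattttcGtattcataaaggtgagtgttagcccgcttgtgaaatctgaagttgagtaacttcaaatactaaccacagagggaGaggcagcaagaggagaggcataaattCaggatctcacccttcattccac
SERPINB4 promoter: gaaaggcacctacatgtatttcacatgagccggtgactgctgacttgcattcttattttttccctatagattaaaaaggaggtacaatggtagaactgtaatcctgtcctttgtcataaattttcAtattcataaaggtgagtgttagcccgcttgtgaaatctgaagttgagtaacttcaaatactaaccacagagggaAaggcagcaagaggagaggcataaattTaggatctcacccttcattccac

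SERPINB3 was at 85.5, 45.83, 209 and 73.1 RPKM in DMOG replicates 1 to 4, against 16.6, 45.75, 29.4 and 25.3 RPKM in vehicle replicates 1 to 4. DMOG replicates 1, 3 and 4 were above every vehicle library, and DMOG replicate 2 was level with vehicle replicate 2, the highest of its group. Means were 103 ± 72.5 RPKM with DMOG and 29.2 ± 12.2 RPKM with vehicle (SD, n = 4 each). It rose in the 6 libraries, by a log2 fold change of 2.49 ± 0.39 (limma, adjusted p = 0.00806), the largest of the 9 members tested there. Leaving out any 1 of the 6 libraries gave 2.05 to 2.74 with adjusted p of 0.00267 to 0.0401. Over 8 libraries the log2 fold change was 1.85 ± 0.48 and was not called (limma, adjusted p = 0.118). As deposited, SERPINB3 was the only member with all 4 DMOG libraries above all 4 vehicle libraries, a pattern found in 2.27% of all genes, and no member had all 4 below, as 12.8% of all genes did. After scaling, DMOG replicate 2 was at 43.6, below vehicle replicate 2 at 45.7.

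SERPINB4 was scarce, at 0.313, 0.340, 1.33 and 0.205 RPKM in DMOG replicates 1 to 4 and 0.107, 0.251, 0.291 and 0.120 RPKM in vehicle replicates 1 to 4. These values rest on 18, 20, 74 and 11 reads with DMOG and on 6, 15, 20 and 7 reads with vehicle. Only DMOG replicate 3 stood well above the rest, and the groups overlapped. Without the filter on low values its log2 fold change was 0.46 ± 0.26 in the 6 libraries (limma, adjusted p = 0.287). The authors' deposited table lists SERPINB4 at a log2 fold change of 2.09 with an adjusted p of 0.0386, and at 1.21 in its column of adjusted log2 fold changes. The pseudocount of 1 understates changes at such levels. SERPINB3 exceeded SERPINB4 in RPKM by 135- to 357-fold in DMOG libraries and by 101- to 212-fold in vehicle libraries.

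The handling of reads that map to both copies is unstated in the sources used here. Of all 50-base stretches in the SERPINB3 transcript, 23.9% also occur in SERPINB4, and of the 100-base stretches 3.40%. Reads listed under SERPINB4 were 0.271 to 0.719% of those under SERPINB3 in DMOG libraries and 0.457 to 0.960% in vehicle libraries. Whether these few reads came from SERPINB3 was not tested. With the reads of both genes summed, the 6-library log2 fold change stayed at 2.49 (limma, adjusted p = 0.00816). With so few SERPINB4 reads this sum could hardly differ, and it does not address reads that map to both copies.

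The neighbours SERPINB12 and SERPINB13 differ in their known targets: SERPINB12 inhibits trypsin-like serine proteases, and SERPINB13, also called headpin or hurpin, inhibits cathepsins L and K. SERPINB12 (hg19 chr18:61223393-61234244, plus strand) was at 4.36, 2.43, 4.77 and 3.97 RPKM in DMOG replicates 1 to 4, against 1.03, 3.94, 1.38 and 1.23 RPKM in vehicle replicates 1 to 4. Vehicle replicate 2 was high and DMOG replicate 2 low in their groups, so that the full groups overlapped, while replicates 1, 3 and 4 did not. It rose in the 6 libraries, to 4.37 ± 0.403 RPKM with DMOG, against 1.21 ± 0.175 RPKM with vehicle (SD, n = 3 each). Its log2 fold change was 1.48 ± 0.12 (limma, adjusted p = 0.00230), and 2.16 on recovered reads, a scale without the pseudocount of 1. Over 8 libraries it was 0.97 ± 0.32 and was not called (limma, adjusted p = 0.118).

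SERPINB13 (hg19 chr18:61254534-61266433, plus strand) was at 41.0, 51.9, 62.5 and 42.8 RPKM in DMOG replicates 1 to 4, against 35.6, 58.0, 36.6 and 53.5 RPKM in vehicle replicates 1 to 4. The groups overlapped, with DMOG replicate 3 highest and vehicle replicate 1 lowest. It was not called in the 6 libraries, at a log2 fold change of 0.51 ± 0.20 (limma, adjusted p = 0.0935), nor in the 8, at 0.33 ± 0.21 (limma, adjusted p = 0.284).

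SERPINB5, maspin, is a serpin of basal and myoepithelial cells that lacks protease inhibition and is studied as a tumour suppressor. It lies at hg19 chr18:61144144-61172318 on the plus strand. It was at 349, 234, 421 and 383 RPKM in DMOG replicates 1 to 4, against 234, 208, 244 and 243 RPKM in vehicle replicates 1 to 4. The vehicle libraries were close together, DMOG replicate 2 lay within their range, and the other DMOG libraries were all above it. SERPINB5 rose in the 6 libraries, to 385 ± 35.9 RPKM with DMOG, against 240 ± 5.73 RPKM with vehicle (SD, n = 3 each). The log2 fold change was 0.98 ± 0.12 (limma, adjusted p = 0.00481), and 0.93 to 1.06 with any 1 library left out. Over 8 libraries it was 0.76 ± 0.22 and was not called (limma, adjusted p = 0.118). SERPINB3, SERPINB5 and SERPINB12 were the members with all 3 DMOG libraries above all 3 vehicle libraries as deposited, as were 9.99% of all genes. No member had all 3 below, as 45.6% of all genes did.

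The upstream sequence of SERPINB5 is shown because, of the members that rose in the 6 libraries, it alone has HIF core letters in its promoter window. It covers chr18:63476708-63476957, plus strand, GRCh38.p14 (RefSeq), and the 2 runs of GCGTG, beginning 65 and 42 bases before the start, are in capitals.
SERPINB5 promoter: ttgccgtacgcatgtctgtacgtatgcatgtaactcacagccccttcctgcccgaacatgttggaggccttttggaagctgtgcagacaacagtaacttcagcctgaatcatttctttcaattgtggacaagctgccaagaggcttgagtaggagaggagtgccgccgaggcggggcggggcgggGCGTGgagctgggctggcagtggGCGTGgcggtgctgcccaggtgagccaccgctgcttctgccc

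Each promoter window of 300 bases, 250 before and 50 after a start, was searched on both strands for the HIF core letters ACGTG and GCGTG and for TGANTCA, the AP-1 letters, where AP-1 is a factor known from squamous differentiation. The 10 members have 16 windows. Either HIF core was in 8 windows of 5 genes, SERPINB1, SERPINB5, SERPINB6, SERPINB8 and SERPINB13, and in 48.4% of all 35116 windows. TGANTCA was in 7 windows of 6 genes, SERPINB2, SERPINB5, SERPINB7, SERPINB8, SERPINB12 and SERPINB13, and in 7.71% of all windows. In SERPINB8, 1 ACGTG shares letters with a TGANTCA. The windows of SERPINB3 and SERPINB4 hold none of these letters. SERPINB7 and SERPINB12, which rose in the 6 libraries as SERPINB3 did, have no HIF core either. SERPINB1, SERPINB6, SERPINB8 and SERPINB13, not called in the main 6-library fit, have one. These matches describe the sequence and show no binding.

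**Figure D2:**
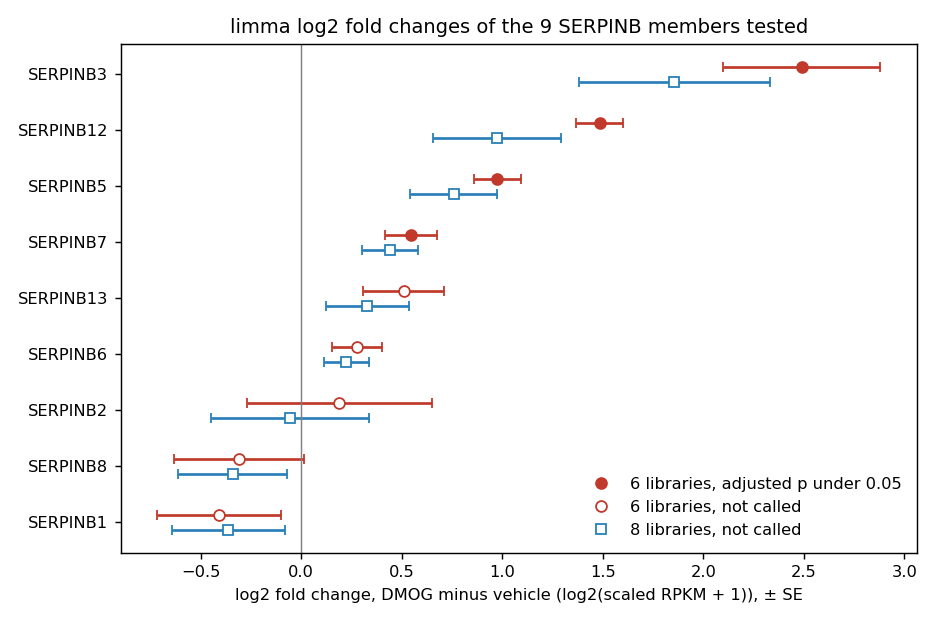
Limma log2 fold changes (x axis, DMOG minus vehicle, log2(scaled RPKM + 1), with bars of ± SE) of the 9 members tested, from 6 libraries (circles, filled where called) and from 8 libraries (squares, none called). In the 6 libraries SERPINB3, SERPINB12, SERPINB5 and SERPINB7 are filled, at 2.49, 1.48, 0.98 and 0.55, and the 8-library values of these 4 are all smaller.

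SERPINB7 is a skin serpin whose loss causes Nagashima-type palmoplantar keratosis, a barrier disorder. It lies at hg19 chr18:61420281-61472610, plus strand. It was at 278, 286, 246 and 216 RPKM in DMOG replicates 1 to 4, against 218, 252, 178 and 229 RPKM in vehicle replicates 1 to 4. As deposited the groups overlapped. After scaling, the DMOG libraries were at 257 to 306 and the vehicle libraries at 167 to 252. How many of all genes were apart in this way after scaling was not counted. SERPINB7 rose in the 6 libraries, with a log2 fold change of 0.55 ± 0.13 (limma, adjusted p = 0.0223), and was not called in the 8, at 0.44 ± 0.14 (limma, adjusted p = 0.118). The 6-library call did not hold on RPKM as deposited, where the log2 fold change was 0.24 (limma, adjusted p = 0.215) and the median of all genes was -0.26. On that scale 3 members rose and 0 fell, against 6.13% and 34.5% of all genes. It was also lost without DMOG replicate 1 (adjusted p = 0.0865) or any 1 vehicle library (adjusted p = 0.0595 to 0.0789), and with vehicle replicate 2 added (log2 fold change 0.44, adjusted p = 0.0543).

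SERPINB2, the plasminogen activator inhibitor PAI-2, inhibits urokinase. Over 4 libraries a group it had the highest mean of the members in both, while over DMOG replicates 1, 3 and 4 SERPINB5 averaged 385 RPKM and SERPINB2 368 RPKM. It lies at hg19 chr18:61554939-61571124, plus strand. It was at 419, 353, 527 and 159 RPKM in DMOG replicates 1 to 4, against 346, 591, 526 and 244 RPKM in vehicle replicates 1 to 4. The groups overlapped throughout, and replicate 4 was the lowest in both. The log2 fold change was 0.19 ± 0.46 in the 6 libraries (limma, adjusted p = 0.769) and -0.06 ± 0.39 in the 8 (limma, adjusted p = 0.928), so its sign depended on the libraries used. PLAU, which encodes urokinase, was at 77.5 to 135 RPKM with DMOG and 69.0 to 119 RPKM with vehicle, and was not called in the 6 libraries (log2 fold change 0.30, limma, adjusted p = 0.305).

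SERPINB1 and SERPINB6 lie together on chromosome 6, at hg19 chr6:2832566-2842283 and chr6:2948393-2972399, minus strand. SERPINB1 inhibits elastase, cathepsin G and proteinase of neutrophils. It was at 57.9, 97.9, 80.5 and 33.5 RPKM in DMOG replicates 1 to 4, against 93.1, 110, 110 and 68.5 RPKM in vehicle replicates 1 to 4. The groups overlapped, but each DMOG library was below the vehicle library of its number, as deposited and after scaling. How many of all genes did so was not counted. It was not called in the 6 libraries, at a log2 fold change of -0.41 ± 0.31 (limma, adjusted p = 0.332), nor in the 8, at -0.36 ± 0.28 (limma, adjusted p = 0.382). With the replicate number as a block the 6-library change had a standard error of 0.11 and was called lower (limma, adjusted p = 0.0319).

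SERPINB6 inhibits trypsin-like proteases and cathepsin G, and its loss causes inherited deafness. It was among the steadiest members, at 31.3, 30.5, 30.3 and 22.9 RPKM in DMOG replicates 1 to 4, against 30.6, 28.0, 28.1 and 26.2 RPKM in vehicle replicates 1 to 4. The groups overlapped, and DMOG replicate 4 was the lowest as deposited, while after scaling vehicle replicate 4 was the lowest, at 23.2. It was not called in the 6 libraries, at 0.28 ± 0.12 (limma, adjusted p = 0.129), nor in the 8, at 0.22 ± 0.11 (limma, adjusted p = 0.203). Over the 6 libraries it was called higher with the replicate block (limma, adjusted p = 0.0494) and without DMOG replicate 4 (limma, adjusted p = 0.0483), and on RPKM as deposited its log2 fold change was -0.02. In the blocked comparison 5 members were higher and 1 lower, against 19.6% and 21.0% of all genes.

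SERPINB8 inhibits furin, and its loss causes a peeling skin disorder. It lies at hg19 chr18:61637263-61656608, plus strand. It was at 16.4, 25.2, 29.7 and 10.6 RPKM in DMOG replicates 1 to 4, against 23.1, 33.1, 33.3 and 25.2 RPKM in vehicle replicates 1 to 4. The groups overlapped, with DMOG replicates 1 and 4 below all vehicle libraries. As deposited, each DMOG library was below the vehicle library of its number, as for SERPINB1. After scaling replicate 3 was not, at 32.1 with DMOG and 31.2 with vehicle. It was not called in the 6 libraries (log2 fold change -0.31 ± 0.32, limma, adjusted p = 0.481) or with the replicate block (limma, adjusted p = 0.187), nor in the 8 (log2 fold change -0.34 ± 0.27, limma, adjusted p = 0.388).

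With DMOG the order of mean RPKM was SERPINB2 (364), SERPINB5 (347), SERPINB7 (257), SERPINB3 (103), SERPINB1 (67.5), SERPINB13 (49.6), SERPINB6 (28.7), SERPINB8 (20.5), SERPINB12 (3.88) and SERPINB4 (0.547). With vehicle it was SERPINB2 (427), SERPINB5 (232), SERPINB7 (220), SERPINB1 (95.2), SERPINB13 (46.0), SERPINB3 (29.2), SERPINB8 (28.6), SERPINB6 (28.2), SERPINB12 (1.89) and SERPINB4 (0.192). Ranges over the 4 libraries were apart between SERPINB7 and the member after it, between SERPINB12 and the members on either side, and, with DMOG, between SERPINB13 and SERPINB6. With vehicle they were also apart between SERPINB1 and SERPINB13. All other neighbours in either order overlapped.

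SERPINB2, SERPINB5 and SERPINB7 together made up 74.1 to 81.5% of the summed RPKM of the members in DMOG libraries and 78.2 to 80.0% in vehicle libraries. SERPINB3 held 6.67, 4.07, 12.97 and 7.73% of that sum in DMOG replicates 1 to 4, against 1.66, 3.44, 2.47 and 2.76% in vehicle replicates 1 to 4. DMOG replicate 4 differed from the other libraries in its leading member: SERPINB5 held 40.5% there and SERPINB2 16.8%. The whole family made up 0.220 to 0.362% of all RPKM with DMOG and 0.207 to 0.296% with vehicle. In bulk RNA, fewer cells of a type and less RNA per cell cannot be told apart.

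**Figure D3:**
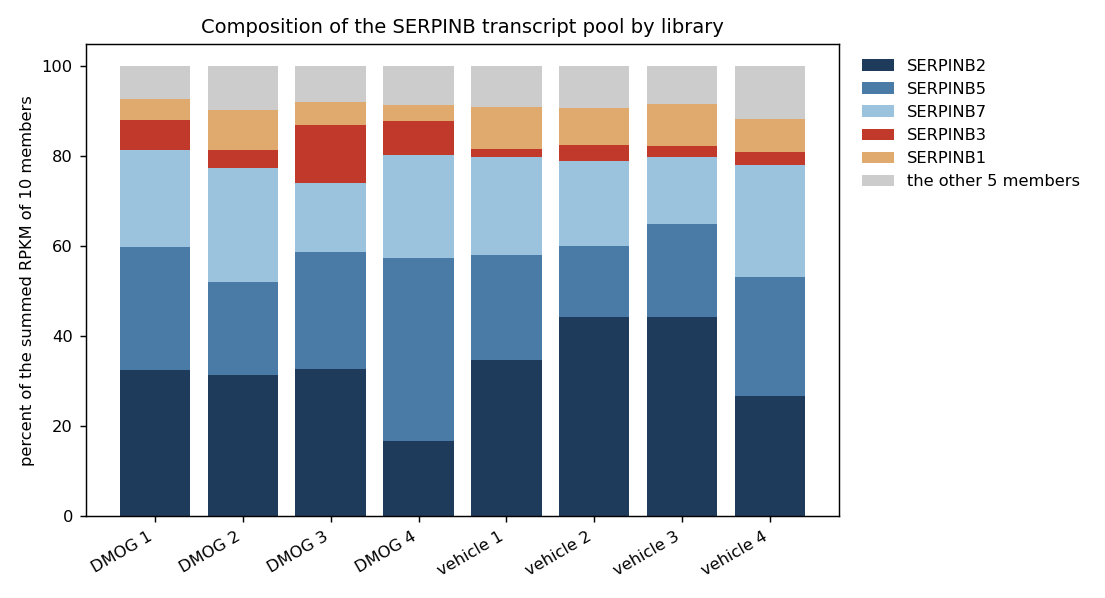
Percent of the summed RPKM of the 10 members (y axis) held by SERPINB2, SERPINB5, SERPINB7, SERPINB3, SERPINB1 and the other 5 members in each of the 4 DMOG and 4 vehicle libraries. The SERPINB3 share is 4.07 to 12.97% in DMOG libraries and 1.66 to 3.44% in vehicle libraries, and DMOG replicate 4 has the largest SERPINB5 share, 40.5%.

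Differentiation markers were set beside these members. The summed RPKM of 6 suprabasal markers was 2858, 3344, 5292 and 1914 in DMOG replicates 1 to 4, against 3001, 3363, 4430 and 2295 in vehicle replicates 1 to 4. The groups overlapped, with replicate 3 highest and replicate 4 lowest in both. Of these markers TGM1, a cross-linking enzyme of the cell envelope, rose in the 6 libraries (log2 fold change 1.14 ± 0.21, limma, adjusted p = 0.0120), and the other 5 were not called. With the replicate block IVL (limma, adjusted p = 0.00726) and DSG1 (limma, adjusted p = 0.0159) were called higher too. Of 5 basal markers, ITGA6, KRT14 and KRT5 rose and 0 fell, beside 13.7% and 16.1% of all genes, and their list summed to 11396 to 13502 RPKM with DMOG and 8205 to 16182 RPKM with vehicle. On RPKM as deposited 1 basal marker, ITGA6, was higher and 1, TP63, lower, beside 6.13% and 34.5% of all genes. The calls of KRT5 and KRT14 were lost on that scale (adjusted p = 0.0784 and 0.0583) and when vehicle replicate 2 was added (adjusted p = 0.185 and 0.172). With 1 library left out, TGM1 was no longer called without DMOG replicate 1 or vehicle replicate 1 or 4, KRT14 without DMOG replicate 1 or any 1 vehicle library, and KRT5 without DMOG replicate 1 or 4 or any 1 vehicle library. CD68 rose in the 6 libraries as well, with a log2 fold change of 0.79 ± 0.23 (limma, adjusted p = 0.0388). That call was lost on RPKM as deposited, with no filter on low values, and without DMOG replicate 1 or 3 or vehicle replicate 1 or 4 (adjusted p = 0.0687 to 0.121). The part of these markers in the SERPINB results was not tested.

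Of 3 further clade B genes, SERPINB11 fell in the 6 libraries. It passed the filter through the vehicle group, where it was high, and among those 6 libraries only vehicle ones reached 1 RPKM. It was at 0.747, 1.43, 0.435 and 0.718 RPKM in DMOG replicates 1 to 4, against 2.09, 1.71, 1.31 and 3.98 RPKM in vehicle replicates 1 to 4, and its log2 fold change was -0.85 ± 0.26 (limma, adjusted p = 0.0469). That call was lost in 8 of the alternatives (adjusted p = 0.0515 to 0.108), among them leaving out any 1 DMOG library or vehicle replicate 1 or 4. The pseudocount of 1 understates changes at such levels. On recovered reads the log2 fold change was -1.51 and was not called (limma-voom, adjusted p = 0.0553). The authors' deposited table, from the same 6 libraries, lists -1.63 with an adjusted p of 0.00300, and -1.33 in its column of adjusted log2 fold changes. SERPINB9, the granzyme B inhibitor, was at 3.15 to 14.1 RPKM with DMOG and 7.08 to 15.3 RPKM with vehicle and was not called (limma, adjusted p = 0.725). SERPINB10, a serpin of blood cells, reached 0.530 RPKM and was not tested. Of the listed neighbours outside the family, KDSR, VPS4B and PHLPP1 on chromosome 18 had log2 fold changes of 0.02, 0.16 and 0.09, and NQO2, WRNIP1 and RIPK1 on chromosome 6 had -0.11, 0.13 and 0.33. None of these 6 was called, except that RIPK1 was called higher with the replicate block (limma, adjusted p = 0.0485), and BCL2, HMSD and MYLK4 were under the filter.

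**Figure D4:**
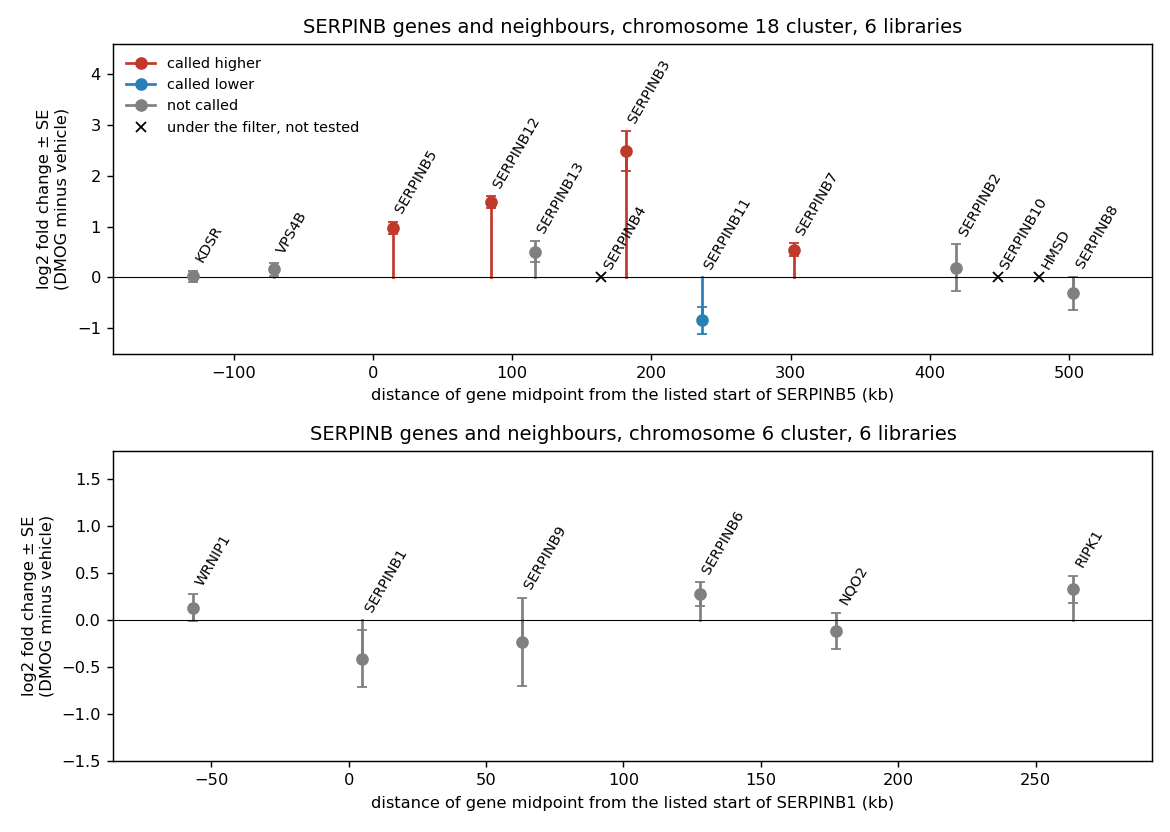
Log2 fold change ± SE in the 6 libraries (y axis) of SERPINB genes and neighbours against the distance of the gene's midpoint from the listed start of SERPINB5 (chromosome 18) or SERPINB1 (chromosome 6), in kb, with crosses for genes under the filter. Genes called higher, SERPINB3 among them at 2.49, lie beside uncalled SERPINB2, SERPINB8 and SERPINB13 and beside SERPINB11, called lower at -0.85.

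Proteases known as targets of these serpins, or close to them, were mostly scarce or not called. The list also held F3 and PLAUR, which are not proteases, and the counts below include them. Of 26 listed, 15 were tested and 3 rose in the 6 libraries, with 0 falling, beside 13.7% and 16.1% of all genes. With the replicate block 4 were higher and 2 lower, beside 19.6% and 21.0% of all genes. PRSS8, a membrane serine protease of epithelia, had a log2 fold change of 0.90 ± 0.16 (limma, adjusted p = 0.0105). CTSV, a cathepsin L relative of squamous epithelia, had 0.79 ± 0.15 (limma, adjusted p = 0.0125), and F3, tissue factor, 1.07 ± 0.29 (limma, adjusted p = 0.0347). Without vehicle replicate 1 none of the 15 was called. CTSV was also lost without DMOG replicate 1 (adjusted p = 0.0561), and F3 without DMOG replicate 1 or 3 or vehicle replicate 4 (adjusted p = 0.0575 to 0.105) and on RPKM as deposited (adjusted p = 0.0674). CTSL, the cathepsin that SERPINB3 and SERPINB13 inhibit, was at 19.2, 27.6, 21.4 and 15.8 RPKM in DMOG replicates 1 to 4, against 29.3, 31.3, 37.0 and 27.6 RPKM in vehicle replicates 1 to 4, and was not called (log2 fold change -0.41, limma, adjusted p = 0.0796). It was called lower with the replicate block (limma, adjusted p = 0.0248) and on RPKM as deposited (limma, adjusted p = 0.0132). ELANE, PLG and GZMB were at 0 in every library. The median log2 fold change of the 15 was 0.30, beside -0.00 over all genes.

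Other protease inhibitors moved in both directions. Of 30 listed, 19 were tested, 6 rose, 2 fell and 11 were not called in the 6 libraries, beside 13.7% of all genes higher and 16.1% lower, with a median log2 fold change of 0.07. TIMP3, a metalloprotease inhibitor, rose by 1.297 ± 0.16 (limma, adjusted p = 0.00481) and CSTB, an intracellular inhibitor of cysteine cathepsins, by 0.87 ± 0.12 (limma, adjusted p = 0.00605). SERPINE2 had -0.58 ± 0.10 (limma, adjusted p = 0.0105) and SERPINA3 -1.53 ± 0.31 (limma, adjusted p = 0.0142). On RPKM as deposited 3 of the 19 rose and 2 fell, beside 6.13% and 34.5% of all genes. Without vehicle replicate 1 these counts were 4 and 0, beside 379 and 539 of all 11122 genes. SERPINA3 was also lost without vehicle replicate 4 (adjusted p = 0.0564).

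The authors' deposited table lists all 10 members among 13424 genes, of which 4884 have an adjusted p under 0.05. It gives 5 members as higher at that threshold, the 4 called here and SERPINB4, and 0 as lower. In the authors' deposited table the unadjusted log2 fold change is 2.65 for SERPINB3, 2.15 for SERPINB12, 0.99 for SERPINB5 and 0.55 for SERPINB7. That comparison uses the same 6 libraries and is no independent support.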

How the data were processed

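Total RNA of 8 samples was sequenced, and groups and replicate numbers were taken from the labels. The authors deposited RPKM values in a table named as raw counts, at hg19 positions; recovered reads were whole within 0.01 reads for 100% of values above 0. Per the submitters' processing notes, TopHat2 2.0.13, Bowtie2 2.2.3.0 and HTSeq 0.6.1 were used, with no role given and with both hg19 and hg38 named. Settings for strand and multi-mapping are unstated in the sources used here. The authors' deposited table holds a mean normalised signal, a ratio (fold), the log2 of that ratio, adjusted forms of both whose making is unstated, and raw and adjusted p-values, by a tool unstated here. Its mean signal was rebuilt from 6 libraries to a relative misfit of at most 1.11e-09, with weight 0 for replicate 2 of either group. Its header does not name the direction of the ratio, which was read from the RPKM values as DMOG over vehicle.

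limma 3.58.1 (limma-trend, robust, R 4.3.3) was fitted across all genes to log2(RPKM / median-ratio factor + 1), with group as the only term and genes at 1 RPKM or more in at least 4 of 8 libraries. The design planned for RPKM was kept. P-values are two-sided and Benjamini-Hochberg adjusted. The method was tested on simulated data with large changes in genes with many reads. That simulation held no library standing apart, and it does not cover small changes or scarce genes. A count test was replaced by limma-voom on recovered reads, an alternative. The members and gene lists were chosen with earlier results of these data known, so no pattern is independent evidence. All 10 members are named; of other lists at most 3 called genes per direction, and all further clade B genes and neighbours, are named, while CTSL, PLAU and the genes listed at 0 were chosen after their values were seen. A gene that this rule selects is not reported here. Over the 6 libraries, same-numbered libraries correlated in their deviations from group means (r = 0.466, 0.397 and 0.341 for numbers 1, 3 and 4). Over 8 libraries, numbers 1 and 2 had 0.0730 and -0.0202, below the highest r of those DMOG libraries with another vehicle number, 0.220 and 0.200. The labels name no pairing, so whether the numbers pair the samples is not settled, and the main fits hold no pairing term. No library was a copy of another. Values after ± are standard deviations or limma standard errors, which measure the spread between libraries, and that spread may be technical. Alternatives were other scaling, a pseudocount of 0.1, no filter, voom, a replicate block and leaving out each library.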

Additional observations from a re-analysis of the deposited data

Results flagged for a closer look

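Dixon's test on RPKM as deposited flagged 1 library in 3 of the 20 groups of 4 libraries (10 members, DMOG and vehicle). Its chance rate is about 1 in 20 groups, and a flagged library stood far from the other 3. SERPINB4 was at 1.33 RPKM in DMOG replicate 3, against 0.205 to 0.340 RPKM in the other DMOG libraries; this value rests on 74 reads. SERPINB6 was at 22.9 RPKM in DMOG replicate 4, against 30.3 to 31.3 RPKM in the other DMOG libraries. SERPINB12 was at 3.94 RPKM in vehicle replicate 2, against 1.03 to 1.38 RPKM in the other vehicle libraries, and its log2 fold change was 1.18 (limma, adjusted p = 0.0214) with that library added to the 6.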

How the results depend on the processing

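Over 8 libraries no member was called under any alternative run except that, without DMOG replicate 2, 3 were called higher (SERPINB3, SERPINB5 and SERPINB12, beside 15.5% of all genes higher and 17.7% lower). The count of higher members ranged from 0 to 3 with 1 library left out. Over 6 libraries, 3 to 5 members were higher and 0 lower with 1 library left out. SERPINB3, SERPINB5 and SERPINB12 were called under every alternative run over the 6 libraries. The replicate block moved the count of lower members to 1 (SERPINB1) and of higher members to 5. Over 8 libraries, where numbers 1 and 2 correlated less with their own number than with another, the block gave 0 and 0. The sign of SERPINB2 turned: over 8 libraries it ranged from -0.32 to 0.26 with 1 library left out, and over 6 from -0.13 to 0.67, with -0.11 on RPKM as deposited and -0.027 with vehicle replicate 2 added. SERPINB6 turned to -0.016 on RPKM as deposited over 6 libraries. The cause was not tested. Scaling moved the split of calls over all genes: RPKM as deposited gave 682 higher and 3836 lower, against 1526 and 1792 after scaling. Counts over all genes with 1 of the 6 libraries left out were 379 to 2224 higher and 539 to 2527 lower. SERPINB4 was under the filter and has a value without it alone. Of the members' 6-library log2 fold changes under alternatives, 104 kept direction and side of the threshold, 5 turned sign, 6 lost a call and 3 gained one. Over 8 libraries 121 kept both, 3 turned sign and 3 gained a call. The main 8-library fit called no gene, so keeping the side there mostly means staying uncalled. The lower limit of reading is set by depth: 1 read was worth 0.0250 to 0.0320 RPM.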

Other observations

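Across the 8 libraries, the genes outside the family whose log2 levels were most like those of the 3 most abundant members were as follows, as descriptions over libraries that share 2 treatments and their depth. For SERPINB2 they were TUBB6, a tubulin (Pearson r = 0.98), HNRNPA1P33, a pseudogene whose reads are uncertain (0.97), and CALM2, a calmodulin gene (0.97). TUBB6 was at 91.0 to 258 RPKM with DMOG and 160 to 267 RPKM with vehicle. For SERPINB5 they were ZNF431 (0.99), NSDHL, an enzyme of cholesterol synthesis (0.98), and SGTA, a co-chaperone (0.98). NSDHL was at 25.6 to 37.7 RPKM with DMOG and 24.7 to 27.6 RPKM with vehicle. For SERPINB7 they were AMACR (0.98), MIR23A (0.97) and FRMD4A (0.97).

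Within each group, some libraries led for many members at once, as deposited and after scaling. For how many of all genes they led was not counted. DMOG replicate 3 had the highest RPKM of the DMOG libraries for SERPINB2, SERPINB3, SERPINB4, SERPINB5, SERPINB8, SERPINB12 and SERPINB13. DMOG replicate 4 had the lowest for SERPINB1, SERPINB2, SERPINB4, SERPINB6, SERPINB7 and SERPINB8, and held the second highest SERPINB5, 383 RPKM. Vehicle replicate 2 was the highest vehicle library for SERPINB1, SERPINB2, SERPINB3, SERPINB7, SERPINB12 and SERPINB13. Some leads were near ties: SERPINB1 was at 109.7 RPKM in vehicle replicate 2 and 109.6 RPKM in vehicle replicate 3. After scaling SERPINB5 was at 455.8 in DMOG replicate 3 and 454.9 in DMOG replicate 4.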
